A study of Mus musculus with 8 samples.

Results

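The genes described here were 7 regulators of the ciliated cell program, Foxj1, Trp73, Mcidas, Myb, Rfx2, Rfx3 and Ccno, and the stretches of open chromatin around them in medullary thymic epithelial cells (mTECs). Their regions were every consensus region that overlapped the annotated gene body or the 20 kb on either side of it. This gave 37 of the 57124 regions of the whole set. Chromatin accessibility had been profiled by ATAC-seq, an assay in which a transposase loaded with adapters enters accessible DNA and tags it for sequencing. The mTECs came from the thymus of young wild-type mice of the BL6N6 strain and were depleted of CD45-positive blood cells. They were gated by flow cytometry as Epcam-positive and CDR1-negative cells. They were sorted on the self-antigen Tspan8 and on MHC class II, a marker of maturation. The 8 samples made up 4 groups of 2 biological replicates, namely Tspan8neg MHCIIlow, Tspan8neg MHCIIhigh, Tspan8pos MHCIIlow and Tspan8pos MHCIIhigh, with the same genotype and no treatment in any of them. The columns of read counts carry names that match no sample label, so levels per sample and differences between the 4 groups are not analysed here. What follows is where the regions of the merged set lie, how wide they are and which sequence they hold, and none of it refers to a single group.

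Multiciliated cells line airways, oviduct and brain ventricles, and carry many motile cilia that beat together. In their formation, Mcidas, a coactivator of the geminin family without DNA binding of its own, acts with E2F factors and switches on Foxj1, Myb, Trp73 and the Rfx factors, while Ccno is needed for the mass production of the centrioles from which cilia grow. Foxj1 and the Rfx factors then act on the genes of the motile cilium. Ciliated cells are also known among the rare mTECs that resemble cells of peripheral tissues. In a sorted population of mixed cells, a site open in few cells and a site opened little in many cells cannot be told apart.

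The sequences at the starts of 5 members are shown first, since 6 of the 7 members had a region there and the text returns to these stretches. Each is the part of the consensus region that lies upstream of the first annotated start, up to 300 bases, 5′ to 3′ on the strand of the gene, in GRCm38 (mm10) from RefSeq. Capitals mark matches to the short motifs that are spelled out below.
Mcidas, chr13:112993599-112993804, plus strand: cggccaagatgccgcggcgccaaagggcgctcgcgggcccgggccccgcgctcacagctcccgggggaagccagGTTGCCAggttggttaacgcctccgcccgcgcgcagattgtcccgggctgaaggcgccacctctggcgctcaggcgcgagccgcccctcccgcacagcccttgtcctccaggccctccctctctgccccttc
Ccno, chr13:112987502-112987801, plus strand: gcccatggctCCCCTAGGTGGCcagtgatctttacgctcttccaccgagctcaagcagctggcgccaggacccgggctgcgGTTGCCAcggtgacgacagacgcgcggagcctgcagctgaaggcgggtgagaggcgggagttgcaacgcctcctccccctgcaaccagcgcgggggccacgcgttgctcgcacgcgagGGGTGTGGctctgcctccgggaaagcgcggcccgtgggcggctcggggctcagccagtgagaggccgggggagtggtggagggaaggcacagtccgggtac
Myb, chr10:21160985-21161224, minus strand: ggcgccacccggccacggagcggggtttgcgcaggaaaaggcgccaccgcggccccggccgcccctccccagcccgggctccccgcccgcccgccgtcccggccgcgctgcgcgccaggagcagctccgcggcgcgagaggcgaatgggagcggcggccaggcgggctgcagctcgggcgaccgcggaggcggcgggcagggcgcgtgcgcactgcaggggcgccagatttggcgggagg
Rfx2, chr17:56831014-56831313, minus strand: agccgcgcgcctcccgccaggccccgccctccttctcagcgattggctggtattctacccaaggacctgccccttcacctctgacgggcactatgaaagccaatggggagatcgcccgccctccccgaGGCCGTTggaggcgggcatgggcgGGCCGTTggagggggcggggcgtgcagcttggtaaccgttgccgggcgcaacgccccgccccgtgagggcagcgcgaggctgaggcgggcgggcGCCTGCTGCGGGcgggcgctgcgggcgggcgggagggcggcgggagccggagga
Rfx3, chr19:28011167-28011466, minus strand: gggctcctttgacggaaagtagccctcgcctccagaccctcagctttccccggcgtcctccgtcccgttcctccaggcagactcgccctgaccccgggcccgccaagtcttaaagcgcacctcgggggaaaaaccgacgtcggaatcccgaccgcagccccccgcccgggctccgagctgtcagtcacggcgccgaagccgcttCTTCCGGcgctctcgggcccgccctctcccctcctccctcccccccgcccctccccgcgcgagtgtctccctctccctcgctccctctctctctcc
The stretches of Mcidas and Ccno both hold GTTGCCA, 1 arm of the palindrome that Rfx factors bind. The Rfx2 stretch holds a MYB match at 2 places, and the Myb stretch holds no match in its 240 bases, 81.7% of which are G or C. The full promoter region of Myb holds a forkhead match. Outside promoters, 2 regions within introns are shown because they were the nearest to the internal start of Trp73 and to the start of Myb, each by its central 300 bases.
Trp73 intron, chr4:154105561-154105860, minus strand: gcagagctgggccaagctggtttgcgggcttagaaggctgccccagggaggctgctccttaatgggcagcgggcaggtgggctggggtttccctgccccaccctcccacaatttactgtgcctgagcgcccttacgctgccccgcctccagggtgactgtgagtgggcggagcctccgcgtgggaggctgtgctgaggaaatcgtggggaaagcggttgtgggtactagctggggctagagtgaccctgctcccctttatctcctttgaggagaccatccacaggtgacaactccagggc
Myb intron, chr10:21159056-21159355, minus strand: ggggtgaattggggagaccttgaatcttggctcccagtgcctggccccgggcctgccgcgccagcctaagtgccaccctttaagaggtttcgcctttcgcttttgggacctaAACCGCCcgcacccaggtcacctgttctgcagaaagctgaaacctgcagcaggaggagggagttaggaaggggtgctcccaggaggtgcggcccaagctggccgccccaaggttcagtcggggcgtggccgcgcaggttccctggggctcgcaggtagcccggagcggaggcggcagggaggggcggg

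All 7 members had at least 1 region in their window. The same held for 81.5% of the 21938 protein-coding genes, so this count differs little from what any gene shows. A region was called a promoter region when its centre lay between 1000 bases before and 100 bases after a transcription start of the basic GENCODE M21 set. By this rule 6 of the 7 members had a promoter region, and Trp73 had none. Over all protein-coding genes 48.6% had one (95% Wilson interval 47.9 to 49.3, which covers counting error over genes only). No test was made of this difference, since the members share a pathway, 2 of them share a locus, and they were not drawn at random.

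**Figure D1:**
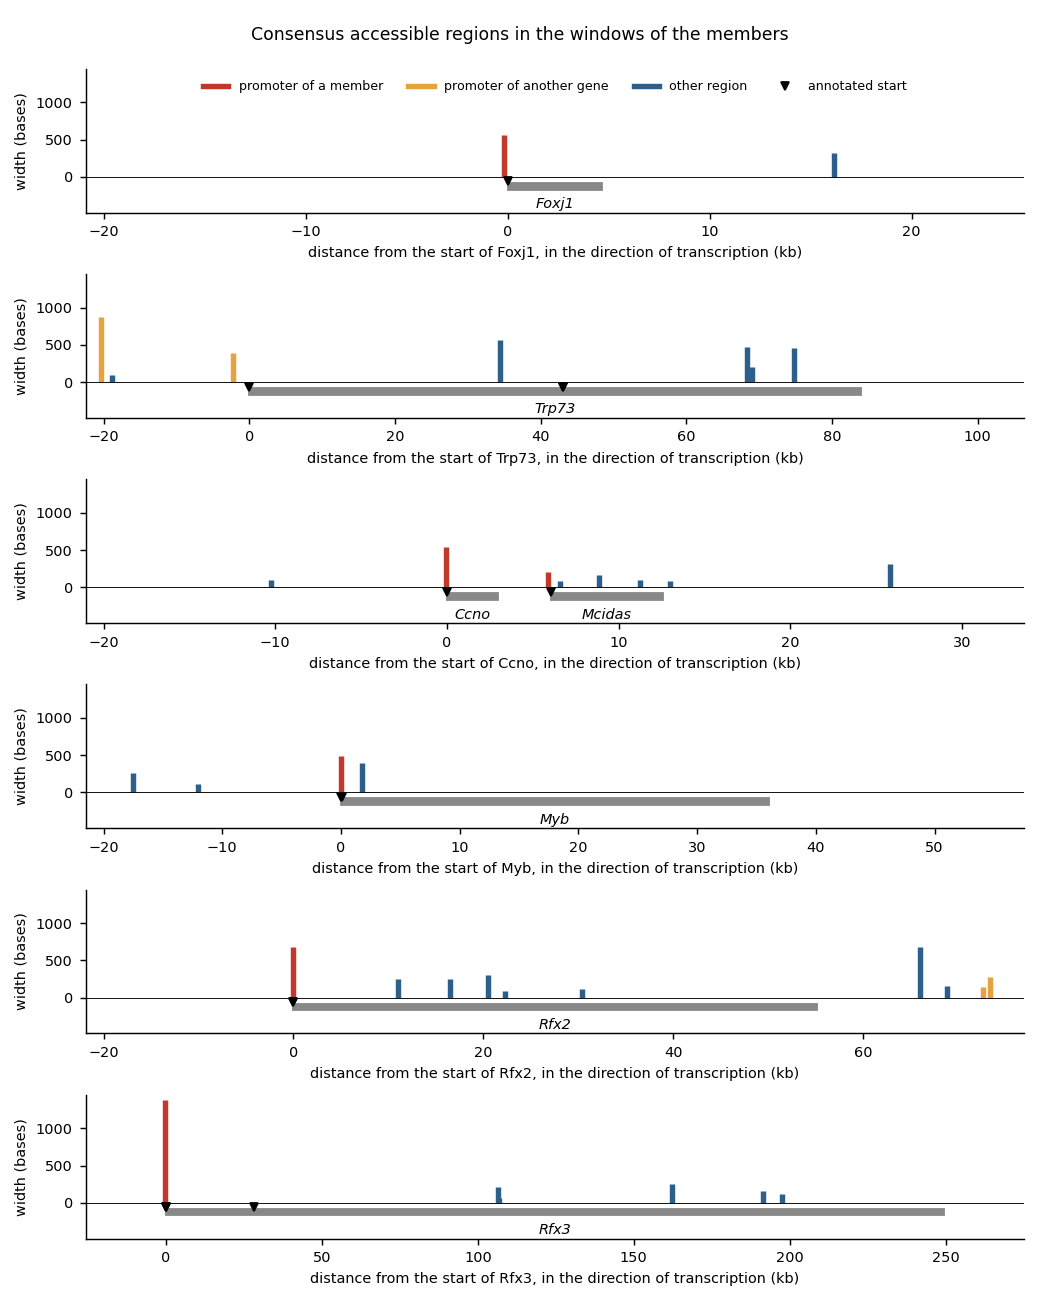
Each panel shows the window of a member (Ccno and Mcidas share a panel) with the distance from its start in kb on the x axis and the width of each region in bases on the y axis. Grey bars are gene bodies and triangles annotated starts. Red bars stand at the start of 6 members, and Trp73 has no red bar.

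Mcidas and Ccno lie next to each other on chromosome 13 on the plus strand, and 7 of the 37 regions fell into both windows. Mcidas had 8 regions in 46550 bases and Ccno had 7 in 42976 bases. This made 17.2 and 16.3 regions per 100 kb of window, more than in 98.9% and 98.5% of protein-coding genes, for which the median was 3.86 per 100 kb (quartiles 1.5 and 6.88). By count they ranked lower, as 91.6% and 87.2% of protein-coding genes had fewer regions than Mcidas and Ccno. The values of these genes come from nearly the same regions and count as 1 locus.

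The promoter region of Mcidas, chr13:112993599-112993804, was the narrowest among the members, with 206 bases. It reached from 246 to 41 bases upstream of the start, so it did not cover the start itself and overlapped no exon. Only 17.4% of all promoter regions in the set were narrower. Within the gene body lay a region of 84 bases over exon sequence 574.5 bases from the start, a region of 162 bases in an intron and a region of 99 bases over exon sequence. A region of 83 bases followed 6936 bases from the start, beyond the end of the gene. At 19789 bases from the start stood a region of 315 bases, of which 56.2% was repeat sequence. The regions inside the gene were thus narrow, each under the median of 176 bases for regions outside promoters.

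The promoter region of Ccno, chr13:112987461-112988000, had 540 bases and covered the start, from 341 bases upstream to 198 bases downstream. It was wider than 57.3% of promoter regions. No other region overlapped the gene body of Ccno. Upstream, the locus held a single further region of 93 bases, at 10267 bases from the start of Ccno. Cdc20b, which lies further along the chromosome and hosts microRNAs of the multiciliated cell program, had a promoter region of 194 bases at chr13:113035010-113035203, beyond both windows.

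Trp73 encodes p73, a relative of p53 that is made in a long form from an upstream start and in a shortened form from an internal start. The window on chromosome 4 held 7 regions, 5.65 per 100 kb, which is more than in 66.2% of protein-coding genes. None lay at a start of Trp73. The region nearest to the upstream start was centred 2243.5 bases away, had 388 bases and covered the start of the neighbouring gene Wrap73. A region of 98 bases, chr4:154159056-154159153, lay 18896.5 bases upstream of that start of Trp73, in intron sequence outside Trp73. The region nearest to the internal starts, chr4:154105426-154105994, was an intron region of 569 bases, centred 8537 bases upstream of them. The other 3 regions within the gene lay in introns 25306 to 31779.5 bases beyond the internal starts, and were 467, 198 and 460 bases wide. The regions of 569, 467 and 460 bases were all above the upper quartile of 308 bases for regions outside promoters. Thus Trp73 had regions in its body comparable in width to promoter regions, for which the median was 482 bases, but none at a start.

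Of all members, Trp73 had the regions closest to an edge of its window. The outermost region inside it, chr4:154160150-154161022, reached in by 58 bases, had 873 bases and covered the start of Tprgl. The first region outside, chr4:154036081-154036172, was 92 bases wide and lay 81 bases beyond the other edge.

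Myb encodes a transcription factor that takes part early in multiciliogenesis and is also widely used by blood progenitors. Its window on chromosome 10 held 4 regions. The promoter region, chr10:21160732-21161224, had 493 bases and reached from 240 bases upstream to 252 bases downstream of the first start, so both annotated starts were covered. A second region in the first part of the gene, chr10:21159005-21159405, had 401 bases and was centred 1700 bases from the start in an intron. The remaining regions of 112 and 256 bases lay 12019.5 and 17535.5 bases upstream. Of 6 haematopoietic marker genes, Ptprc (CD45) among them, 0 had a promoter region, beside 48.6% of all protein-coding genes. The cells had been depleted of CD45, so this count is no independent check for blood cells. The part of blood cells in the Myb regions was not tested.

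Foxj1 encodes the forkhead factor that is required for motile cilia. Its window on chromosome 11 held the fewest regions among the members, 2 in 44696 bases. By density, 4.47 per 100 kb, it was above the median of all protein-coding genes. By count it was below their median of 3 regions per window, and 30.7% of genes had fewer. The promoter region, chr11:116335303-116335866, had 564 bases, reached from 467 bases upstream to 96 bases downstream of the only annotated start, and was wider than 60.2% of promoter regions. The other region, chr11:116319069-116319389, had 321 bases and lay 16170 bases from the start, in intergenic sequence downstream of the gene.

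Rfx2 and Rfx3 encode winged-helix factors that bind the X-box in promoters of cilium genes. Rfx2, on chromosome 17, had the largest number of regions among the members, 10, or 10.5 per 100 kb. Of these, 6 overlapped the gene. The promoter region, chr17:56830730-56831414, had 685 bases and covered both starts, from 401 bases upstream to 283 bases downstream. The other 5 lay in introns 11040.5 to 30388.5 bases from the start and were 83 to 299 bases wide. The remaining 4 regions lay at or near neighbouring genes. These were 2 promoter regions of Nrtn, which encodes the growth factor neurturin, with 282 and 136 bases, a region of 685 bases over the start of Dus3l with its centre 187 bases into that gene, and an intergenic region of 160 bases.

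Rfx3, on chromosome 19, is the longest member, with 249446 bases, and had the lowest density, 2.07 regions per 100 kb, below the median of 3.86 for all genes. By count Rfx3 ranked higher, with 6 regions, more than in 81.0% of protein-coding genes. Its promoter region, chr19:28010670-28012051, had 1382 bases, reached from 911 bases upstream to 470 bases downstream of the nearest start, and was wider than 98.9% of promoter regions. It covered 3 of the 4 annotated starts. The internal start had no region nearer than 27722 bases. The other 5 regions all lay inside the gene, 78108 to 169274 bases from the nearest start, and were 71 to 252 bases wide. The intron regions of Rfx2 all lay nearer to its start, as they must in a gene of 55117 bases.

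**Figure D2:**
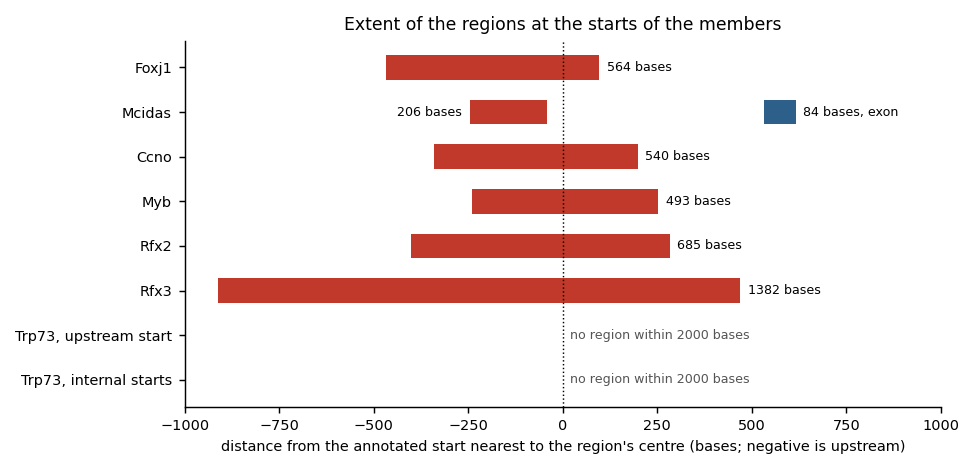
The x axis gives the distance in bases from the annotated start, with upstream on the left, and each red bar is the promoter region of a member with its width. The blue bar is the exon region of 84 bases in Mcidas. The bars of 5 members span the start, the bar of Mcidas ends 41 bases before it, and both Trp73 rows are empty.

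Of the 37 regions, 10 were promoter regions, 6 of members and 4 of other genes, 18 lay in introns, 6 in intergenic sequence and 3 in exons. Promoter regions made up 27.0% of the 37 and 21.9% of all 57124 regions. The 6 promoter regions of members were 206 to 1382 bases wide, with a median of 552 bases, beside a median of 482 (quartiles 277 and 703) for all promoter regions. Mcidas lay below and Rfx3 above these quartiles, and the other 4 lay within them. The 27 regions outside promoters were 71 to 685 bases wide, with a median of 198 bases, beside 176 (quartiles 108 and 308) for all such regions. Regions under 200 bases made up 40.5% of the 37 and 47.4% of all regions. In width the members thus resembled the rest of the set, apart from Rfx3, which was wider than 98.9% of promoter regions. Mcidas, below the lower quartile, was wider than 17.4% of them.

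**Figure D3:**
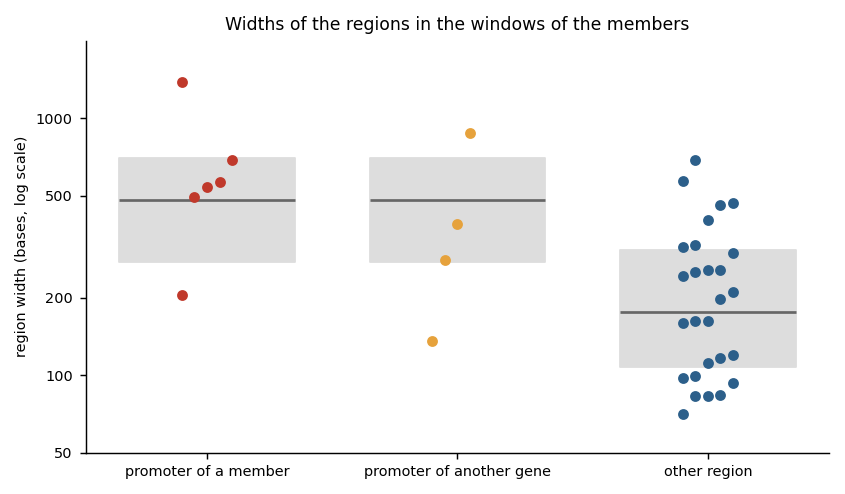
Points are the 37 regions in the windows of the members, with the width in bases on a log scale on the y axis. Grey bands span the quartiles of all promoter regions (left and middle) or all other regions (right), and lines mark medians. Of the 6 member promoter regions, 4 lie within the band, Rfx3 above it at 1382 bases and Mcidas below it at 206 bases.

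The promoter regions of the members were rich in G and C. Their GC content ran from 66.9% in Rfx3 to 74.3% in Mcidas, with 67.4% in Foxj1, 69.6% in Ccno, 72.2% in Myb and a value between those of Myb and Mcidas in Rfx2. All 6 lay above the median of 64.6% for all promoter regions (quartiles 58.7 and 69.8). The ratio of observed to expected CpG ran from 0.775 in Foxj1 to 0.905 in Rfx3, beside a median of 0.768 for all promoter regions (quartiles 0.573 and 0.885).

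Most genes with such starts had a region in these cells. Composition was taken over 500 bases on either side of a start. For each protein-coding gene 1 start was used, that of the transcript first in order of identifier. A promoter region counted at any start of the gene. Among the 6055 genes with at least 60% GC and a CpG ratio of at least 0.6 at the start used, 75.1% had a promoter region. Among the other 15883 genes 38.5% had one. The upstream start of every member fell into the first class, which is a nearer background for the 6 of 7. The measures are not identical, since members were classed by their upstream start. Trp73 was the exception within that class, since its upstream start had 70.4% GC and a CpG ratio of 0.769, the highest GC content among the members, without a region. The internal starts of Trp73 had 59.8% GC and a ratio of 0.336. The internal start of Rfx3 had 34.1% GC and a ratio of 0.0691. Neither of these had a region.

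**Figure D4:**
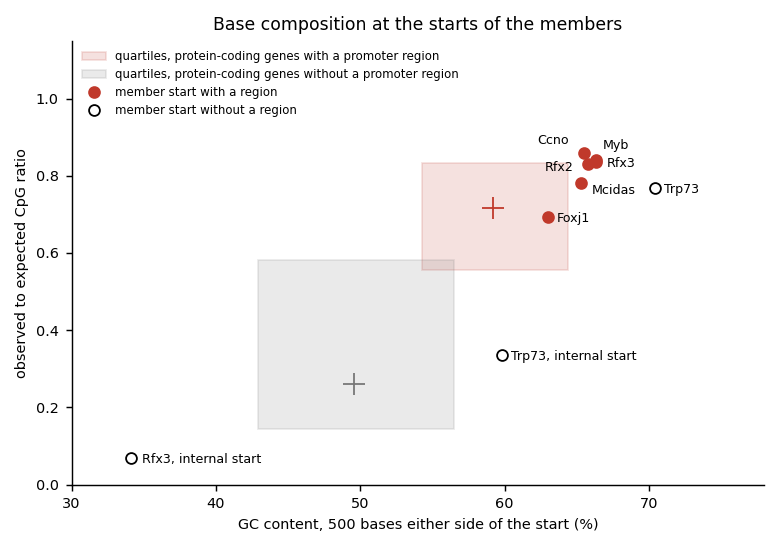
Each point is an annotated start of a member (starts less than 200 bases apart are drawn once), with GC content in percent on the x axis and the observed to expected CpG ratio on the y axis, over 500 bases either side. Filled points have a promoter region and open points have none. Shaded boxes span the quartiles and crosses mark medians of protein-coding genes with and without a promoter region. The upstream start of Trp73, at 70.4% GC, is the open point among the filled ones.

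Genes that act above or beside the members were taken as a list of 15. Of these, 11 (73.3%) had a promoter region, beside 48.6% of all protein-coding genes. Gmnc, the relative of Mcidas that starts the program, had 2 promoter regions, the wider with 268 bases. E2f4, a partner of Mcidas on DNA, had one of 492 bases, and its dimer partner Tfdp1 one of 858 bases. Deup1, which builds the deuterosome, had one of 468 bases, and the centriole factors Plk4 and Cep152 had 934 and 501 bases. The Notch pathway genes Notch1, Dll1 and Jag2 had 535, 779 and 559 bases, and Trrap, a scaffold of histone acetyltransferases, had 1097 bases. The Notch1 region, chr2:26503521-26504055, stood at an internal start of a gene annotated from 26457903 to 26516663. E2f5, Gmnn, Foxn4 and Noto had none by this rule, although the centre of the nearest region stood 126, 186 and 180.5 bases from a start of E2f5, Gmnn and Noto. With any overlap with 1000 bases on either side of a start, a rule added after these values were seen, 14 of the 15 genes had a region, beside 63.1% of all protein-coding genes. Foxn4 had none under either rule, with the nearest centre at 15221 bases. The members stood at 6 of 7 under both rules.

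Of the 14 relatives of the members in the same gene families, 13 (92.9%) had a promoter region, beside 48.6% of all protein-coding genes. For the p53 family, Trp53 had 2, the wider with 371 bases, and Trp63 had one of 169 bases with 13 regions in its window. The Trp63 region, chr16:25801782-25801950, stood at an internal start of a gene annotated from 25683763 to 25892102, and its outermost start had none. Trp73 had none, with 7 regions in its window. For the Myb family, Mybl1 and Mybl2 had 868 and 432 bases, beside 493 for Myb. For the Rfx family, Rfx1, Rfx5, Rfx7 and Rfx8 had 1171, 640, 1288 and 401 bases, Rfx6 had 139 bases, and Rfx4 had no region nearer than 41057.5 bases to a start, measured to the centre. Rfx3, with 1382 bases, had the widest in its family and Rfx2 lay between Rfx5 and Rfx1. Foxj2 and Foxj3 had 443 and 1300 bases, beside 564 for Foxj1, and the cyclins Ccna2 and Ccnf had 537 and 542 bases, beside 540 for Ccno.

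Among 30 genes for parts of the motile cilium, which include targets of Foxj1 and the Rfx factors, 21 (70%) had a promoter region, with the widest at Ccdc114 (1302 bases), Tubb4b (1261 bases) and Rsph4a (641 bases). Ccdc114 encodes a dynein docking protein, Tubb4b a tubulin of ciliary microtubules and Rsph4a a radial spoke protein. All 30 had at least 1 region in the window. Among 15 genes for cilium building that other cells with a single cilium also use, 12 (80%) had a promoter region. The share was 48.6% over all protein-coding genes. It was 75.1% over those with at least 60% GC and a CpG ratio of at least 0.6 at the start. The composition at the starts of the genes in these lists is not given here, so 75.1% may not be their matched background. The promoter regions were narrower in the motile cilium list, with a median of 311 bases for the widest per gene. This median was 587 bases in the cilium building list and 552 bases in the members. No difference between the lists was tested.

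The label of the cells was set beside marker genes. All 9 mTEC markers, Aire, Epcam and Tspan8 among them, had a promoter region, as did 2 of 4 genes of cortical thymic epithelium and 0 of 6 haematopoietic genes. Over all protein-coding genes the share was 48.6%. The cells had been gated as mTECs by the presence of Epcam and the absence of CDR1. They had also been sorted on Tspan8 and MHC class II (H2-Ab1) and depleted of CD45 (Ptprc). The marker lists are therefore no independent check of the label.

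**Figure D5:**
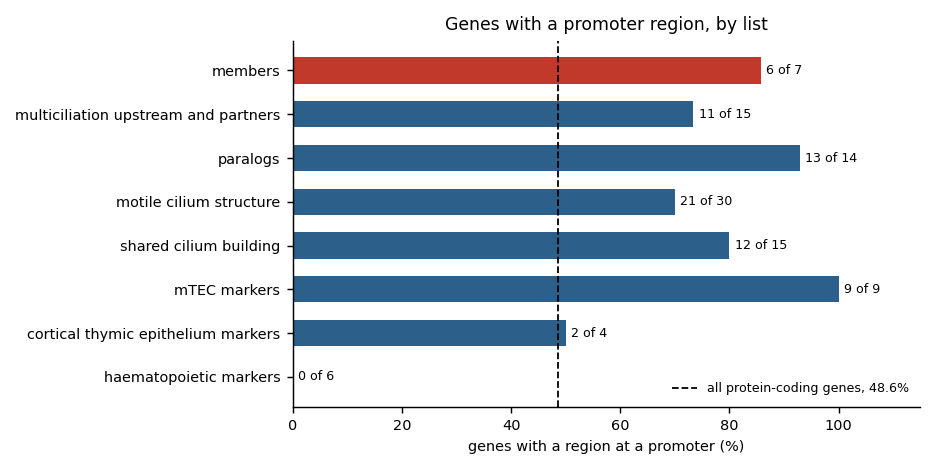
Bars give the percentage of genes in each list that had a region at a promoter, with the number of genes beside each bar. The dashed line marks the 48.6% of all protein-coding genes. The 7 members stand at 6 of 7, and the haematopoietic markers at 0 of 6.

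Short motifs of the factors encoded by the members, and of factors active in epithelium, were searched on both strands in the 200 bases centred on each region, which run past the edges of the 15 regions under 200 bases. A match is a string of letters and no measure of binding. The RFX X-box, GTTNCC followed by GGNAAC with 0 to 3 bases between, was found at 0 of the 37 regions and at 0.448% of all regions. The single RFX arm GTTGCCA was found in 2 of the 37 and in 3.22% of all regions. The forkhead motif TGTTTAC was found in 2 (2.97% of all regions), the p53 family motif ACATGTC in 1 (1.90%) and the MYB motif GGCNGTT in 5 (8.52%). The E2F motif GGCGGGAA was found in 1 (1.06%), the ETS motif CCGGAAG in 2 (3.84%), the KLF motif GGGTGTGG in 3 (3.06%) and the CTCF motif, CC then 3 bases then AGNNGGC, in 4 (10.5%). At least 1 of the 9 motifs stood in these 200 bases at 15 of the 37 regions, which is 40.5%, and at 30.7% of all regions. One of the KLF matches lay beyond the edge of its region, a region of 120 bases in an intron of Rfx2. When only bases inside the regions were searched, a setting added after the values were seen, KLF was found in 2 of the 37 and any of the 9 motifs in 14 (37.8%), beside 27.0% of all regions. With so few regions, these counts are descriptions only.

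Several matches lay at the starts of members. The E2F match stood in the promoter region of Foxj1, and a forkhead match in that of Myb. The MYB motif was found in the promoter region of Rfx2, in the Myb intron region printed above and in the downstream region of Foxj1. The GTTGCCA arm was found in the promoter region of Mcidas, in that of Ccno outside the central bases, and in an intron region of Rfx2 16521.5 bases from its start. In the RefSeq promoter windows, from 250 bases before to 50 bases after a start, 6 of the 7 members were matched with 7 windows (Foxj1 was not). GTTGCCA stood in 2 of these 7 windows, those of Mcidas and Ccno, and in 4.38% of all 32851 windows. The KLF motif also stood in the windows of these 2 genes (3.56% of all windows) and the MYB motif in 2 windows, of Rfx2 and Trp73 (12.1%). The forkhead, E2F, ETS and CTCF motifs stood in 1 window each, of Myb, Trp73, Rfx3 and Rfx2 in this order. The X-box and the p53 family motif stood in 0 of the 7. A match in a window need not lie in a region. The promoter region of Mcidas held no KLF match over its full length, and Trp73 had no promoter region. The promoter region of Rfx3, which is the widest, held no match in its central bases and a forkhead, an ETS, a KLF and a CTCF match in its full length. A longer stretch can hold more matches. For matches in the full length of a region, no share over all regions is given here.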

How the data were processed

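Reads from 8 ATAC-seq samples were aligned by the authors to mm10 with Bowtie2 and filtered with SAMtools for mitochondrial, multimapping and poorly aligned reads. Duplicates were removed with Picard, broad peaks were called with MACS2, and peaks were merged with bedtools into 1 consensus set. The methods do not say if peak calling was done for each sample or on a pool. The deposited table gives the start, end and width in bases of each region, which belong to no sample, and featureCounts 2.0.3 counts in 8 columns. The names of these 8 columns match no sample label, so the columns were not used and the depth of the samples is not analysed here. The planned comparison between groups was therefore not run. Because peaks were merged, a region can join several called peaks, which sets its width, and regions in repeated sequence may be missed without multimapping reads.

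Regions were annotated by their centre as promoter, otherwise exon, intron or intergenic, with the basic GENCODE M21 set, on GRCm38.p6 (the assembly behind mm10). Sequences, promoter windows and older gene symbols (Dnaic1 for Dnai1 and Dnaic2 for Dnai2) came from RefSeq for GRCm38.p6. Printed promoter stretches lie upstream of all starts of the gene in GENCODE and curated RefSeq. Repeat content is the share of soft-masked bases. The CpG ratio is the number of CpG times the length over the product of C and G. The text names all members with their regions, genes with a promoter region in their windows, all genes of the upstream and family lists, and of the motile cilium list the 3 widest promoter regions. Members, lists and motifs were chosen with earlier results of these data known. Annotation and motif functions were tested on simulated data. The software was pysam 0.24.0, pandas 2.3.3, numpy 2.4.6, scipy 1.17.1 and matplotlib 3.10.9 under Python 3.11.15.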

Additional observations from a re-analysis of the deposited data

How the results depend on the processing

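The count of 6 members with a promoter region held under all 4 alternatives, namely a minimum width of 200 bases, the comprehensive GENCODE set, any overlap with 1000 bases on either side of a start, and a centre from 2000 bases upstream to 500 downstream. The first could not lower this count, since the narrowest promoter region of a member had 206 bases. The others only widen the rule or add starts, so they could only keep or raise it. Under the same alternatives the share of all protein-coding genes was 44.4%, 55.6%, 63.1% and 62.5%. The background of the count of members thus moved while the count did not. The number of regions in the windows was 56 with 50 kb on either side and 22 with a minimum width of 200 bases. That minimum also gave a median width of 394.5 bases, as it removes narrow regions by construction. Of 33 alternatives to 14 values, 26 left the value within the set limits and 7 moved it. The 7 for the gene lists and the search for motifs inside regions only were added after the data were seen, and each kept its count within 1.5 times. No paired analysis was possible because the columns of counts carry no sample label or replicate number. For that reason the comparison of groups with its other count model, filter, replicate block and left-out replicates was not run. Depth per region was not used here, and a start without a region is not shown to be closed.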
